A study of Drosophila melanogaster with 3 samples.

Results

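Chromosome 4 of Drosophila melanogaster held 402 of the 30000 entries (1.34%) in the pooled relaxed list of Hr4-GFP binding in white prepupae. The members are every entry on that chromosome in build dm6, in a list that by design mixes peaks with background and was made from all 3 replicates together. Another 29592 entries lay on the other 5 chromosome arms and 6 on the mitochondrial genome. The chromosome 4 entries were compared with the 25 chromosome 4 peaks of the optimal list, called reproducible here, and with the 313, 381 and 435 chromosome 4 entries in the relaxed lists of replicates 1, 2 and 3.

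Chromatin immunoprecipitation followed by sequencing (ChIP-seq) was done on whole prepupae, males and females together, at the white prepupa stage, and the age field of the labels reads 48 days, which may be an entry error in its unit, since prepupae form within days of egg laying. All animals came from a transgenic line that stably expresses Hr4 with GFP fused to its C-terminus, and the antibody was against GFP. The 3 biological replicates form 1 group, so there is no other genotype, treatment or time, and no control library was analysed here. Whole animals were used, so a peak cannot be assigned to a tissue, and the lists carry no read counts, so the depth behind each value is unknown.

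Hr4 is an orphan nuclear receptor of the cascade that the steroid hormone ecdysone sets off when the larva becomes a prepupa, and receptors of this family bind short DNA sites related to AGGTCA. Chromosome 4, the dot chromosome, is the smallest of the fly. It is rich in transposable elements and carries marks of heterochromatin such as histone H3 methylated at lysine 9 and the protein HP1a, with a chromosome-specific protein, POF, along its genes, which are nonetheless expressed. It carries developmental regulators such as ey, ci and pan among its genes.

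The sequences below are 6 summits with 50 bases to each side, from the Release 6 genome sequence of RefSeq, plus strand, 5′ to 3′, in dm6 coordinates. They were chosen to show a strong intergenic peak, a peak at a start site, the strongest intronic peak, the reproducible peak with the lowest GC content, the one with the highest, which is also the only reproducible one with AGGTCA, and the only reproducible one inside a transposable element. Capitals mark exact matches, on either strand, to the motifs searched: AGGTCA (the half-site of nuclear receptors), AAGGTCA (the same with 1 more base), GAGAG (a site of the GAGA factor), TATCGATA, GGTCACAC, CACACACA and AAAAAAAA.
Intergenic, second strongest on the chromosome, chr4:424783-424883: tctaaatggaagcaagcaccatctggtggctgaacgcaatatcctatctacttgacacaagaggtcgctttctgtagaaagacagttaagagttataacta
gw start site, chr4:659999-660099: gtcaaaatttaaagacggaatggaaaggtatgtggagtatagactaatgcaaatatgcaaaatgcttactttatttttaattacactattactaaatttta
Sox102F intron, chr4:807656-807756: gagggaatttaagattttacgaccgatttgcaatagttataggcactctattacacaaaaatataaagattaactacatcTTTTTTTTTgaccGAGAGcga
pho start site, chr4:1181766-1181866: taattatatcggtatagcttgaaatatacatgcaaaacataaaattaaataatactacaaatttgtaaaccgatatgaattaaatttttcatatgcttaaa
Upstream of dati, chr4:396012-396112: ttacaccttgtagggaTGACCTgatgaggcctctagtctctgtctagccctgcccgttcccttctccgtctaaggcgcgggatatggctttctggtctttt
INE-1 element near Arl4, chr4:180815-180915: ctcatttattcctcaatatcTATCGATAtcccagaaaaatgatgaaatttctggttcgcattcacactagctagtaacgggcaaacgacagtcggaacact
The gw and pho windows are named for start sites 66 and 188 bp from their summits and do not include those sites. The intergenic, gw and pho windows held none of the motifs. The Sox102F window held a run of T and GAGAG, the window upstream of dati held AGGTCA on the minus strand, and the INE-1 window held TATCGATA, the core of the site bound by the insulator protein BEAF-32 and the factor Dref.

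Chromosome 4 was represented mostly by weak entries. Of its 402 pooled entries 25 were reproducible, or 6.22% (95% Wilson interval 4.25 to 9.02), where 29.0% of all pooled entries were. On the other arms the share was 29.3% (28.8 to 29.8), and each of those 5 arms lay between 28.0% and 31.4%. All 8693 reproducible peaks were the 8693 entries with the highest signal value in the pooled list, so this share is a statement about rank. The median rank on chromosome 4 was 21044, against 14896.5 on the other arms, where rank 1 is the highest signal. Wilson intervals here cover counting error only, and neighbouring entries are not independent.

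The share of chromosome 4 rose down the ranks. It made up 4 of the first 3000 pooled entries (0.133%), 8 of the next 3000 (0.267%) and 13 of those ranked 6001 to 9000 (0.433%). Between ranks 18001 and 30000 each band of 3000 held 61 to 75 entries, 2.03% to 2.50%. No chromosome 4 entry was among the top 300. The first 3000 entries of replicates 1, 2 and 3 held 6, 4 and 4 entries of the chromosome, and the last 3000 held 33, 56 and 75. In replicate 1 the share peaked at ranks 12001 to 15000 with 49 entries and was lower after that, whereas in replicates 2 and 3 every band from rank 18001 onward held between 56 and 75.

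**Figure D1:**
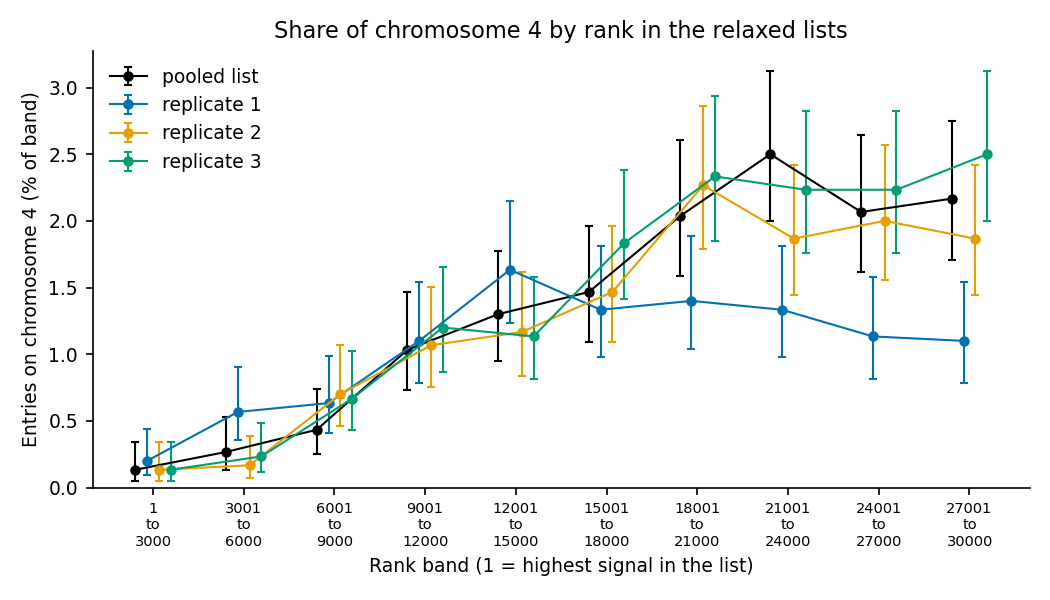
Share of entries on chromosome 4 (%, y axis) in successive bands of 3000 ranks (x axis) for the pooled list and each replicate; bars are 95% Wilson intervals for counting error. All 4 lists start at 0.2% or less, and the pooled list reaches 2.5% at ranks 21001 to 24000.

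The same contrast was seen in every replicate when only its strongest entries were counted. Among the 8693 highest entries of replicates 1, 2 and 3, 40, 28 and 29 lay on chromosome 4, which is 29.7, 20.8 and 21.5 per Mb. The other arms held 65.3, 65.2 and 65.3 per Mb. Chromosome 4 was lower in 3 of 3 replicates, by a mean of -41.3 per Mb (chromosome 4 minus the other arms; SD 4.91, n = 3; two-sided exact sign-flip permutation test, p = 0.25, the smallest p that 3 replicates allow).

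Counted over whole relaxed lists the order was the other way round. Chromosome 4, 1348131 bp long, held 232.2, 282.6 and 322.7 entries per Mb in replicates 1, 2 and 3, and the other arms held 224.0, 223.3 and 223.0. The difference was 8.18, 59.3 and 99.7 per Mb, a mean of 55.7 (SD 45.9, n = 3; exact sign-flip permutation test, p = 0.25). Replicate 1 stood apart from the others, since its list held 138.6 entries per Mb on the X chromosome where replicates 2 and 3 held 244.4 and 257.8. Against the other autosomal arms alone, without X, the difference was -10.3 per Mb in replicate 1 and 63.8 and 107.2 in replicates 2 and 3 (mean 53.6, SD 59.4, exact p = 0.5), so the direction was not the same in all 3. Each list has a fixed length of 30000, so a density also depends on how many entries the other arms take.

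Along the chromosome the pooled entries were spread from end to end of the gene-bearing part, with 18 to 47 per 100 kb up to base 1300000. The last 75.7 kb, after base 1272382, held no entry in any dm6 list, and 97.1% of that stretch is annotated as transposable elements, with 0 protein-coding genes. The widest stretch between pooled summits, 41773 bp, lay near the left end, between bases 576 and 42349. Reproducible peaks ran from base 67341 to base 1230878. Their largest gap, 215197 bp, lay between a peak at base 180865 near Arl4 and one at base 396062 near dati.

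The replicates shared a smaller part of the chromosome 4 entries than of those on the other arms. A summit within 250 bp was present for 211 of the 402 entries in replicate 1 (52.5%), 251 in replicate 2 (62.4%) and 271 in replicate 3 (67.4%). All 3 replicates had one for 96 entries, 23.9% (20.0 to 28.3), against 48.2% on the other arms. Another 154 entries were found in 2 replicates, 137 in 1 and 15 in none. The pooled list was made from the same 3 alignments, so these shares describe how far the pool repeats its parts and are no independent replication.

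Weak entries were shared less often than strong ones on chromosome 4 and on the other arms alike, so entries of like rank were set side by side. Of the 25 reproducible peaks 23 were found in all 3 replicates (92.0%), against 90.5% on the other arms. Among entries of rank 9001 to 12000 the share was 16 of 31 (51.6%, 34.8 to 68.0) on chromosome 4 and 75.0% elsewhere. At ranks 12001 to 15000 it was 20 of 39 (51.3%) against 56.6%, and at ranks 18001 to 21000 it was 13 of 61 (21.3%) against 19.4%. At ranks 24001 to 27000 it was 1 of 62 (1.61%) against 7.83%. Of the 10 bands, that from rank 9001 was the only one in which the value of the other arms lay outside the chromosome 4 interval.

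Read from the replicates' side, 61.3%, 64.3% and 60.9% of the chromosome 4 entries of replicates 1, 2 and 3 lay within 250 bp of a pooled summit. On the other arms the shares were 65.2%, 77.4% and 77.7%. The entries without a pooled partner numbered 121, 136 and 170. As a description over the 96 shared entries, Spearman's rho between replicate ranks was 0.50 for replicates 1 and 2, 0.52 for 1 and 3 and 0.48 for 2 and 3, and 0.77, 0.78 and 0.81 over 14268 entries of the other arms. Below the reproducible threshold the values were 0.20, 0.24 and 0.22 over 73 entries, and 0.22, 0.26 and 0.28 over 6428 entries elsewhere.

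The strongest site of the chromosome lay at base 1113356 (entry chr4:1113169-1113479), where the genes sv and Cals end tail to tail. Its pooled signal value, on the authors' own scale, was 826.8, and it ranked 348 in the pooled list. It ranked 469, 311 and 328 in replicates 1, 2 and 3 and was the strongest chromosome 4 entry in each. The summit fell in the 3′ UTR of Cals, which encodes calsyntenin, a cadherin-related membrane protein of synapses, 9609 bp from its start site. The annotated end of sv, which encodes the Pax2 homologue shaven, is base 1113317.

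The second strongest, at base 424833, lay between genes with a signal of 461.3 and ranks of 1102 in the pool and 591, 1571 and 1769 in the replicates. The nearest protein-coding start site, of lgs, was 19078 bp away, and the nearest start site of any kind was that of lncRNA:CR43437 at 1234 bp. Next was a summit 66 bp from a start site of gw, whose GW182 protein acts in silencing by microRNAs, with a signal of 406.3 and ranks of 1351 in the pool and 1073, 1679 and 1527 in the replicates. These 3 sites ranked within the top 3000 in all 3 replicates.

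Another 3 peaks lay in or beside Sox102F, a gene for a SOX-family transcription factor. The summit at base 807706, in an intron and 359 bp from a start site, had a signal of 258.1. It ranked 2749 in the pool and 1977, 3146 and 2949 in the replicates. The others, at bases 831988 and 835454, had signals of 191.9 and 96.2 and ranked 3932 and 8031 in the pool.

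The peaks that remain are grouped by the role of the gene and not by rank, beginning with other regulators of transcription. The peak 169 bp from a start site of lgs, which encodes the Legless adaptor of the Wingless pathway, had a signal of 177.2 and ranked 4327 in the pool. It ranked 6420 and 5098 in replicates 2 and 3, and the nearest summit of replicate 1 lay 254 bp away, just outside the 250 bp allowed. A peak 188 bp from a start site of pho, a DNA-binding member of the Polycomb group, ranked 5397 in the pool and 2803, 13339 and 5998 in the replicates. The peak 3 bp from a start site of ey, the Pax6 gene of eye development, ranked 6693 in the pool and 5898, 7603 and 5260 in the replicates. The gene nearest to 3 peaks was dati, which encodes a zinc-finger protein, at 457, 8859 and 11440 bp from its start site. Their pooled signals were 108.3, 90.1 and 104.7.

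Genes of signalling and of neurons form another group, some of them with higher ranks than the regulators above. The peak 157 bp from a start site of PlexA, a receptor for semaphorins, had a signal of 215.3 and ranked 3419 in the pool and 1656, 4716 and 7273 in the replicates. The peak of myo, which encodes the TGF-β family ligand myoglianin, lay in its 5′ UTR, 815 bp from the start site. It ranked 4313 in the pool and 3970, 4212 and 4355 in the replicates. A peak in an intron of Eph, the ephrin receptor, ranked 7645 in the pool and 5264 and 8426 in replicates 2 and 3, with no summit of replicate 1 within 250 bp. CaMKII and CaMKI, which encode calcium- and calmodulin-dependent protein kinases, had peaks 213 and 17 bp from a start site that ranked 5615 and 7941. A peak at 41 bp from a start site of Cadps, whose protein acts in the release of dense-core vesicles, also lay within 1 kb of the kinase gene Dyrk3. It ranked 6429 in the pool and 3316, 19719 and 7001 in the replicates, the widest spread of the 25.

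The remaining peaks lay near genes of other kinds. Asator, a kinase gene of the tau-tubulin kinase family, had an intronic peak with a signal of 205.9 that ranked 3615 in the pool and 4427, 2756 and 5493 in the replicates. RpS3A, a ribosomal protein gene, and Arl4, a gene for an ARF-like GTPase, had peaks 134 and 106 bp from a start site that ranked 6193 and 6177. Mpv17, which encodes a mitochondrial inner membrane protein, had a peak at 208 bp that ranked 7544. The peak shared by CG46466 and Slip1 ranked 5593. A second peak near Arl4, at base 180865, lay in an INE-1 element and in an exon of lncRNA:CR46488, with a rank of 8083. The last, at base 879279, lay inside unc-13, a gene for a synaptic vesicle priming factor, 95 bp from a start site of asRNA:CR44029 and 12254 bp from the nearest protein-coding one, of Gyf, and it ranked 8159.

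**Figure D2:**
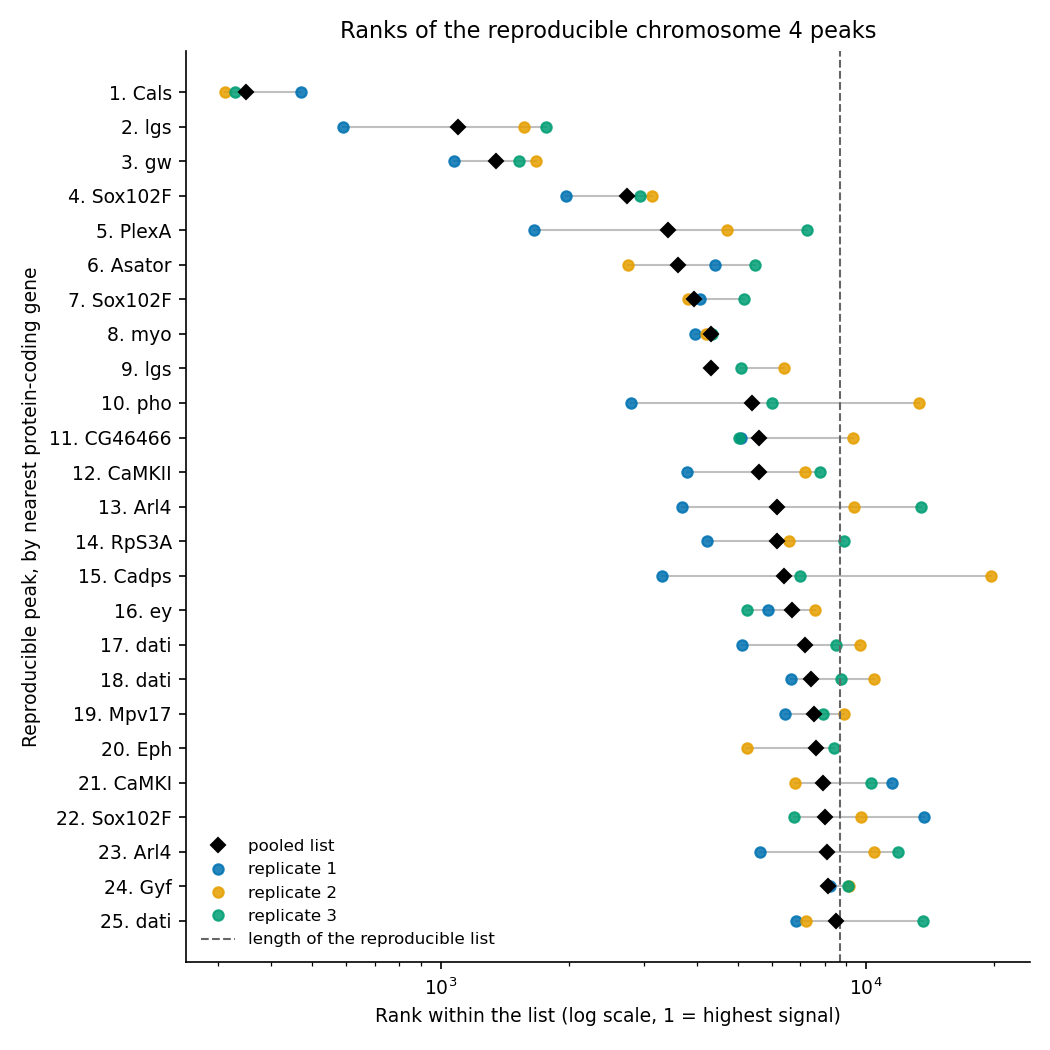
Rank (x axis, log scale) of each of the 25 reproducible chromosome 4 peaks in the pooled list and of the strongest summit within 250 bp in each replicate, labelled with the nearest protein-coding gene (y axis); the dashed line is the length of the reproducible list, 8693. The Cals peak is left of all others in every list, and from the pho peak at place 10 downward many peaks have at least 1 replicate right of the line.

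Among the 25 peaks, 10 were in the top 8693 of all 3 replicates, or 40.0% (23.4 to 59.3), against 68.7% (67.7 to 69.6) of the reproducible peaks of the other arms. Another 9 were there in 2 replicates and 6 in 1. The pooled rank of the 25 had a median of 6177, and that of all reproducible peaks 4347, so the peaks compared were not of equal rank. Replicate 1 had 21 of the 25 in its top 8693, replicate 2 had 15 and replicate 3 had 18. Just inside the threshold were the peak at base 404464 near dati, with a signal of 90.1, and that at base 879279, with 94.3. Just outside were entries near CG11360, Tdg and fuss, with 84.2, 84.1 and 83.3. The highest signal below the threshold in the whole pooled list was 88.0. The peak at base 404464 ranked 8493 among the 8693 reproducible ones, so it lay near the edge. In build dm3 the optimal list had 8311 entries, 24 of them on chromosome 4.

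The 3 chromosome 4 entries whose nearest replicate summits differed most in rank percentile lay at Sox102F, Asator and apolpp. At the first the nearest summit of replicate 3 ranked 29860, while a second one within 250 bp ranked 2949, so the difference came from which of 2 close summits was read. The Asator entry at base 486729, with a signal of 35.0, lies beside the reproducible peak at base 486530, and its strongest replicate summits within 250 bp ranked 4427, 2756 and 5493. At base 1064453, in introns of apolpp, a lipid carrier gene, and Zyx, the zyxin gene, the ranks were 25914, 7211 and 12926.

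The chromosome 4 summits were more often at start sites, and more often in exons, than those of the other arms. In promoters, 250 bp to each side of a start site, lay 82 summits, 20.4% (16.7 to 24.6), against 13.7% elsewhere. Promoters make up 5.93% of the bases of chromosome 4 and 7.51% of those of the other arms. Coding exons held 26 summits, 6.47% (4.45 to 9.31), against 0.841% elsewhere, although they hold 19.2% and 15.5% of the bases. The 3′ UTRs held 32, or 7.96% (5.69 to 11.0), against 2.80%. Introns held 165 (41.0%, against 52.7%) and intergenic sequence 79 (19.7%, against 27.0%).

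None of the 26 coding summits was reproducible, where 6.22% of all chromosome 4 entries were, so a count of 0 among so few is no result about coding exons. On the other arms 16 of 249 coding summits were reproducible (6.43%), against 29.3% of all entries there. The coding summits of chromosome 4 had a median rank of 22520.5, and those of the other arms 23961. Because the other arms hold more strong entries, entries below the threshold were also compared alone. There the coding share was 6.90% (4.75 to 9.91) of 377 on chromosome 4 and 1.11% of 20930 elsewhere, and the promoter share was 18.3% (14.7 to 22.5) and 11.2%. Coding bases had a GC content of 41.6% on chromosome 4 and 53.6% on the other arms, and whether that difference bears on the coding share was not tested.

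**Figure D3:**
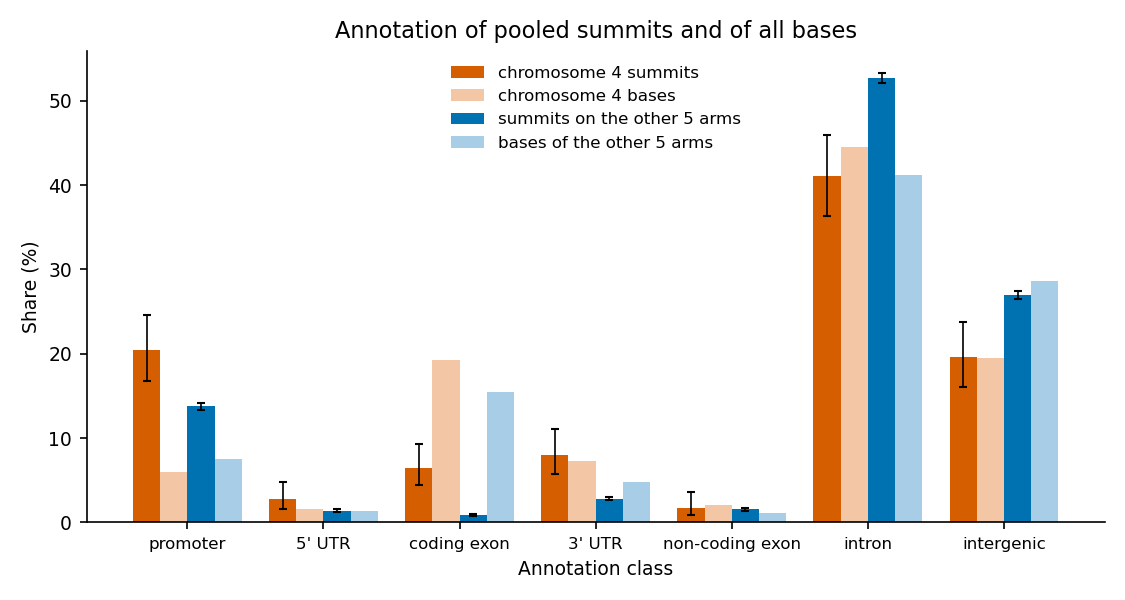
Share (%, y axis) of the 402 chromosome 4 summits, of the 29592 summits of the other arms and of all bases in each annotation class (x axis); bars on summits are 95% Wilson intervals. Promoters hold 20.4% of chromosome 4 summits and 5.93% of its bases, and coding exons 6.47% and 19.2%.

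Of the 25 reproducible peaks 13 lay in promoters (52.0%), where 19.9% of the reproducible peaks of the other arms did. Another 4 were intronic, 5 intergenic, and the 5′ UTR, 3′ UTR and non-coding exon classes had 1 each. Within 1 kb of a protein-coding start site lay 17 of the 25, 68.0% (48.4 to 82.8), against 37.1% elsewhere, and the median distance was 359 bp against 1997 bp. Of these 17, 12 were upstream of the site. Over all 402 entries 150 were within 1 kb, 37.3% (32.7 to 42.1), against 28.0%. The spacing of genes on each arm sets part of such shares, and its role was not tested.

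Transposable elements cover 24.8% of chromosome 4 and 5.74% of the other arms. Of the chromosome 4 summits 45 lay in one, 11.2% (8.47 to 14.7), where 0.612% of the summits of the other arms did. Both shares were below the share of bases covered. The short element INE-1, with 344 copies and 7.22% of the bases, held 24 of the summits, and 1360, with 60 copies and 3.79% of the bases, held 9. The reproducible peak near Arl4 was the only one of the 25 in an element. Outside elements the pooled list held 352.0 entries per Mb on chromosome 4 and 235.4 on the other arms. How the authors treated reads that match several repeats is not stated in the labels or files.

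The dip in GC content that marks summits on the other arms was all but missing on chromosome 4. Around a summit, with 50 bases to each side, GC content averaged 32.6% (SD 6.39, 402 entries), and windows 500 bp to the left and right had 33.3% and 33.1%. On the other arms the summit had 34.2% and its flanks 42.9% and 42.6%. The summit minus the mean of its flanks was -0.643 percentage points on chromosome 4 and -8.53 elsewhere. A summit below both of its flanks was seen for 31.3% of the chromosome 4 entries and for 60.9% of the others.

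The reproducible peaks showed the same. Their summits had 33.3% GC (SD 7.55, n = 25) and their flanks 35.1% and 34.7%, a difference of -1.58 points, against -11.8 on the other arms. Among the 25 the pho peak was lowest with 19.8% and the peak upstream of dati highest with 53.5%, as can be read from their sequences above. Chromosome 4 as a whole has 35.2% GC and the other arms 42.2%. By replicate, the chromosome 4 summits had 35.3%, 31.5% and 32.8% GC, and those of the other arms 37.3%, 34.3% and 34.8%.

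**Figure D4:**
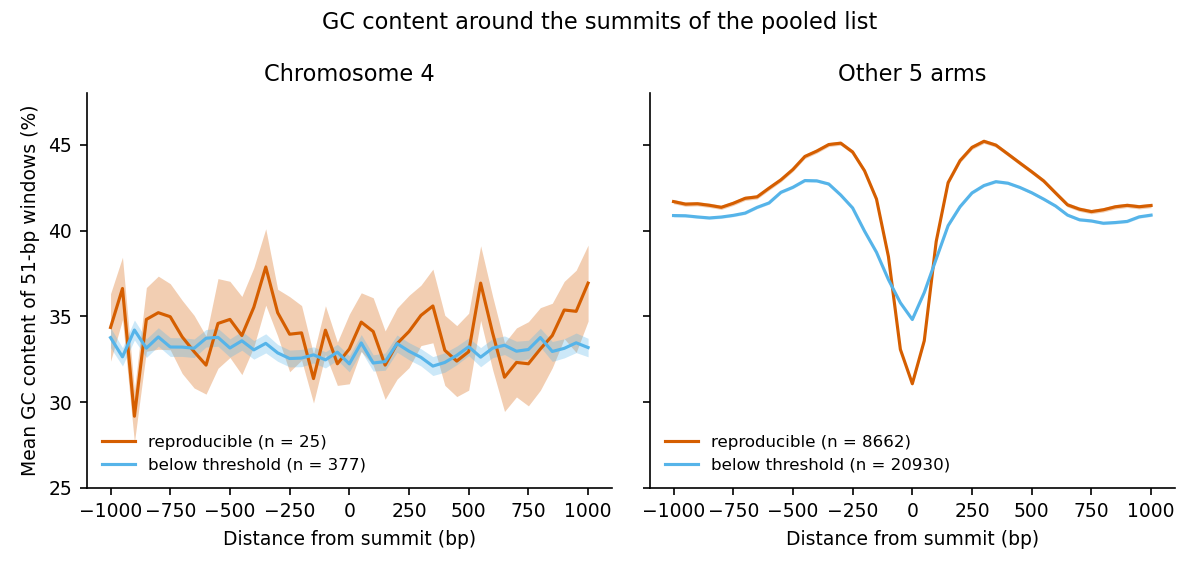
Mean GC content of 51-bp windows (%, y axis) by distance from the summit (bp, x axis) for reproducible entries and entries below the threshold, on chromosome 4 (left) and the other 5 arms (right); shading is the standard error over entries. The lines on the right fall towards the summit and those on the left show no such fall, with a wider band for the 25 reproducible peaks.

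Motif matches at the chromosome 4 summits were few. AGGTCA, the nuclear receptor half-site, occurred within 50 bp of 11 summits, 2.74% (1.53 to 4.83), against 1.72% on the other arms and 2.31% of all windows of the same length tiled along chromosome 4. AAGGTCA, which contains AGGTCA, occurred at 6 (1.49%), against 0.659% on the other arms and 0.888% of the tiled windows. The strongest of the 11 was the peak upstream of dati, and the other 10 were below the reproducible threshold, at ranks of 10653 and lower in the list. The latter include entries near MED26, a subunit of the Mediator complex, and gw.

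GAGAG occurred at 29 summits (7.21%, against 9.52% elsewhere and 9.25% of tiled windows). Runs of A or T, searched as AAAAAAAA, occurred at 34 (8.46%, against 9.36% and 6.36%). TATCGATA was at 4 (0.995%), CACACACA at 3 (0.746%) and GGTCACAC at 1 (0.249%), against 0.551%, 1.63% and 0.362% elsewhere. In the tiled windows of chromosome 4 these 3 motifs occurred at 0.90%, 0.592% and 0.152%. Each of these shares of the other arms fell inside the chromosome 4 interval, apart from AAGGTCA, for which the interval began at 0.686%. A match of letters is not a binding site, and no match says nothing of other sites.

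Nearly every gene of the chromosome had a pooled entry close by. Of its 80 protein-coding genes 71 (88.8%, 80.0 to 94.0) had a pooled summit within 1 kb of a start site, against 40.0% of the 13865 genes on the other arms. With reproducible peaks alone it was 19 genes, 23.8% (15.8 to 34.1), against 22.7%. With entries found in all 3 replicates it was 39 genes (48.8%, 38.1 to 59.5) against 23.3%. The median distance from a gene to the nearest pooled summit was 140.5 bp against 2103 bp, and to the nearest reproducible one 14957.5 bp against 6162 bp. Genes of chromosome 4 are longer, with a median of 10090 bp against 2156 bp.

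Transcription factor and chromatin genes had 15 of 18 listed members with a pooled summit within 1 kb and 5 with a reproducible one. Over all 80 genes of the chromosome the shares were 88.8% and 23.8%. Among the 15 is JYalpha, which sits in that list although it is not a gene of this kind. The 5 with a reproducible one were ey, lgs, Sox102F, dati and pho. The pan gene, which encodes the TCF factor of the Wingless pathway, had the most summits of any gene of the chromosome in its span, 21. None of these was reproducible, nor were any of the 14 in sv, the 11 in bt or the 9 in zfh2, beside 6.22% of all entries of the chromosome. The other genes with 11 or more summits were Cadps, Sox102F and Asator. They had 1 reproducible of 16, 2 of 12 and 1 of 11. At such a share a count of 0 among so few is no result about these genes. The strongest entry of pan within 1 kb of a start site had a signal of 73.7 and ranked 10315. Both ci, the Hedgehog effector, and Mitf had several weak entries, with best signals near a start site of 72.3 and 66.5. The best entry of sv near a start site ranked 19459. In contrast zfh2, a zinc-finger homeodomain gene, toy, a second Pax6 gene, and onecut had none within 1 kb, with the nearest at 1300, 1040 and 2917 bp.

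All 8 listed ligand and receptor genes had a pooled summit within 1 kb, and 3 had a reproducible one, namely myo, PlexA and Eph. Over all 80 genes of the chromosome the shares were 88.8% and 23.8%. Among the 8 is fuss, an intracellular protein of the Ski family listed with the TGF-β ligands. The TGF-β family genes Actbeta and mav had best ranks of 11550 and 15584, below myo at 4313. PlexB ranked 14756 and Ephrin, the ligand of Eph, 13772. Both were weaker than the peak of their partner or relative.

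Of the 11 measured genes listed under synapse and neuron, 9 had a pooled summit within 1 kb and 2 a reproducible one, Cadps and CaMKII. These counts stand beside 88.8% and 23.8% of all 80 genes of the chromosome. Taf3 and Tdg sit in that list under older symbols although they are not synaptic genes. Cadps had 16 entries in its span. The genes unc-13 and Syt7, which act in vesicle release, had none within 1 kb of a start site.

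Of the genes listed under cell structure and contraction, 5 of 5 had a pooled summit within 1 kb and 1, Slip1, a reproducible one. That peak lay nearer to a start site of CG46466, at 154 bp, than to that of Slip1, at 343 bp. The giant muscle protein gene bt had 11 summits in its span, with a best rank near a start site of 20371. Of the 15 measured genes listed under housekeeping and metabolism 14 had a summit within 1 kb and 5 a reproducible one, gw, RpS3A, Dyrk3, Arl4 and Asator. That list is broad. The 5 include gw, which acts in silencing by microRNAs, the kinase genes Dyrk3 and Asator and the GTPase gene Arl4. Their count is therefore no result about housekeeping genes. The Dyrk3 peak is also the Cadps peak counted under synapse and neuron. The counts of both lists stand beside 88.8% and 23.8% of all 80 genes of the chromosome. Asator had 10 summits within 1 kb of its start sites. Gyf, whose product acts in control of translation, was the only gene of the 80 with no pooled summit in its span. Over all lists 51 of 57 measured genes had a summit within 1 kb, and of the 23 other genes of the chromosome 20 did.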

How the data were processed

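The data are ChIP-seq peak lists of 3 biological replicates of whole white prepupae. Sonication gave 200 to 800 bp, per the labels. Per the deposited notes, relaxed lists of peaks and background were made from each replicate and from all 3 alignments, with a control, and the optimal list by irreproducible discovery rate analysis. The sources used here give no aligner, peak caller or threshold. The deposited columns used were the authors' signal value, their −log10 q and the summit offset. The p column reads -1 throughout. Read depth is unknown.

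All 10 lists were read, in dm6 and dm3, and builds were not mixed. Entries were ranked by signal within each list. Summits within 250 bp counted as shared, and the replicate rank of a peak is that of its strongest such summit. Positions were placed on Release 6 with Ensembl annotation release 115, transposable elements apart, in the order promoter (250 bp to each side of any start site), 5′ UTR, coding exon, 3′ UTR, non-coding exon, intron, intergenic. A gene's span runs from 1 kb upstream to its end. Motif windows, and the windows tiled along the chromosome, were the length of a summit with 50 bp to each side. Densities were compared over replicates by an exact sign-flip permutation test. Shares have 95% Wilson intervals. Functions were tested on simulated data. Python 3.11.15, numpy 2.4.6, pandas 2.3.3 and matplotlib 3.10.9 were used.

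Named genes are those nearest to the reproducible peaks and the 10 strongest entries, the 5 with most summits in their span, listed genes with a summit within 1 kb and those nearest to the 3 entries that differ most between replicates. Entries just outside the threshold, genes without a near summit and those named with a motif were added after their values were seen. Of 63 listed symbols 5 are not on chromosome 4 in the annotation and 1 repeats another. The members, lists and tests were chosen with earlier results of these data known.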

Additional observations from a re-analysis of the deposited data

How the results depend on the processing

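No paired analysis was possible because the replicates form 1 group and there is no second group to pair them with. The density test does set chromosome 4 against the other arms within each replicate. There were 37 other settings, 33 planned and 4 added after seeing the data. Of these, 23 left the result on the same side or within its own error. For counts of genes and of peaks, a fixed fold range around the main count was used instead. The density difference of 55.7 per Mb turned to -41.3 when only the top entries of each replicate were kept, by construction a different set of entries. It ranged from 33.7 to 79.5 per Mb with 1 replicate left out, and was 93.0 outside transposable elements and 45.6 in dm3 (exact p = 0.5 there, with replicate 1 at -9.20). The share of entries found in all replicates, 23.9%, was 12.2% within 100 bp, 32.6% within 500 bp, 30.6% by any overlap of the intervals, and 30.8% to 43.3% over 2 replicates at a time. Promoters held 8.21% of summits at 100 bp to each side of a start site and 29.6% at 500 bp. The 71 genes with a near summit were 39 with entries in all 3 replicates and 19 with reproducible peaks. Within 100 bp of a summit AGGTCA occurred at 4.98%, GAGAG at 14.9% and AAAAAAAA at 15.9%, wider windows having more bases to match. The reproducible share was 5.96% in dm3. Ranking by the p column could not be run, as it reads -1 throughout. Differences between single peaks were not tested, and 3 replicates and unknown depth limit their precision.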
